A study of Homo sapiens with 6 samples.

Results

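Transcripts of 10 adhesion genes of the immunoglobulin superfamily were followed through 6 RNA-seq libraries of OVCAR5, an established human epithelial ovarian cancer line. The members were NCAM1, NCAM2, L1CAM, NRCAM, ALCAM, MCAM, BCAM, CADM1, CADM4 and NECTIN2, taken as the rows of the count table whose gene identifier belongs to these symbols (10 of 60649 rows). NCAM1 had been chosen by its measured CPM, because these lay low in replicate 1 of each group, and its relatives were added around it. Accordingly, the difference between replicate 1 and replicates 2 and 3 is given below as a description, without a test. Of the 10 members, 7 passed the filter on low counts and were among the 22038 genes tested. NCAM2, NRCAM and CADM1 did not.

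The METTL3 group (3 libraries) held OVCAR5 cells transduced with a lentivirus that carries METTL3, the catalytic subunit of the m6A RNA methyltransferase. The vector group (3 libraries) held OVCAR5 cells transduced with empty lentivirus. Cells of both groups had been selected with puromycin and expanded as stable lines, no drug treatment is given in the labels, and the submitters' series text calls the controls parental where the sample text describes an empty vector. Nothing states whether the 3 replicates of a group were separate transductions or cultures, so p-values measure the spread between these libraries, which may be technical. METTL3 itself stood at 152, 165 and 175 CPM (counts per 1e6 counts of the library, scaled with TMM factors) in replicates 1, 2 and 3 of the METTL3 group and at 80.6, 68.6 and 71.6 CPM with vector, so every library matched its label. Its log2 fold change was 1.16 ± 0.12 (SE, n = 3 per group), with an adjusted p of 0.072 in edgeR's quasi-likelihood test. Total counts ranged from 96633925 to 125463386 per library. Epithelial markers were abundant in every library, with a summed level of 8554 to 9750 CPM with METTL3 and 6733 to 10419 CPM with vector. The leukocyte gene PTPRC, the endothelial gene KDR and the neural genes STMN2 and INSM1 lay at 0 to 0.0708 CPM. Other genes of these marker lists were expressed, such as LYZ (28.1 to 57.0 CPM), CD14 (7.01 to 11.4), EGFL7 (26.9 to 33.1) and ENO2 (26.0 to 49.0), so the lists as a whole do not show that these cell types were absent.

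Cell adhesion molecules of the immunoglobulin superfamily are membrane proteins whose extracellular immunoglobulin domains bind partners on neighbouring cells, often a copy of themselves. NCAM1 (CD56) and L1CAM are best known from neurons, where they guide axon growth and signal through FGF receptors and kinases of the SRC family, and both also occur on carcinoma cells. Nectins and CADM proteins act at cell junctions beside cadherins, while MCAM, ALCAM and BCAM are found on many epithelial, endothelial and tumour cells.

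The DNA just upstream of RefSeq start sites of members is shown first, over 250 bases for MCAM and CADM4, with 30 bases around a NECTIN2 start. Some of these starts lie inside the annotated gene, among them those of MCAM, L1CAM and NECTIN2. Their windows therefore belong to internal starts and not to the 5′ end of the annotated gene. A relation of these sequences to the levels of the members was not tested. RefSeq windows (GRCh38.p14, 250 bases before to 50 bases after each start) matched 8 of 10 members with 12 windows. NCAM1 and CADM1 had no entry. The GC content of the windows ranged from 35.0% (an NRCAM window) to 81.0% (CADM4), with 78.0% for MCAM and 76.0% and 78.3% for BCAM. In the sequences below, capitals mark GC boxes (GGGCGG, the letters bound by SP1 family factors) and cAMP response elements (TGACGTCA), searched on both strands, and overlapping matches were kept.
MCAM, chr11:119317131-119317380, minus strand: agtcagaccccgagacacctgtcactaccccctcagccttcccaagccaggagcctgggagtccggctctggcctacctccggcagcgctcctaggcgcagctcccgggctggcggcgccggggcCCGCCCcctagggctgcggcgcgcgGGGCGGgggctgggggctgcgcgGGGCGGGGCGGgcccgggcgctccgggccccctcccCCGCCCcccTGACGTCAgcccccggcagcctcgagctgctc
CADM4, chr19:43639851-43640100, minus strand: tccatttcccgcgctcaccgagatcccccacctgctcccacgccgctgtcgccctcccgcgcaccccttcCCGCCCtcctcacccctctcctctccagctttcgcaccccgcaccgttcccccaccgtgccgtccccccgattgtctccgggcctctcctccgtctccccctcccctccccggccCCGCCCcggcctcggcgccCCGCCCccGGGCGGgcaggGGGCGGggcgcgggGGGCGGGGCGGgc
NECTIN2, chr19:44846287-44846316, plus strand: ggtggatcctgTGACGTCAgcgggttcgaa
The MCAM stretch ends at the base before the start, and its cAMP response element begins 32 bases before it. The 30 bases of NECTIN2 surround the same 8 letters, which there begin 1 base after the RefSeq start. That start lies inside the annotated gene, and 122 of the 250 bases before it are in annotated exons. The NECTIN2 stretch is thus transcribed sequence in the annotation and not DNA upstream of the gene. A further copy stood 47 bases before the most downstream of 3 NRCAM starts. In all, 3 of the 12 windows held TGACGTCA, against 1.85% of 35116 RefSeq promoters. GC boxes were found in 9 of 12 windows, against 44.95% of all promoters with at least 1 match. There were 9 matches in the window of CADM4, 5 in that of MCAM and 5 in each window of BCAM. Windows of 1 gene can overlap, and by gene 7 of the 8 members with a window held a GC box and 3 of 8 held TGACGTCA. TATAAA occurred in 0 of the 12 windows and in 11.53% of all promoters. These motifs were picked after the sequences had been read, and a match is a description of letters only.

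Several members lie close to each other. NCAM1 (chr11:112961275-113278436, GRCh38, plus strand), CADM1 and MCAM (chr11:119308529-119321521, minus strand) share the long arm of chromosome 11, with 1.89 Mb between NCAM1 and CADM1. BCAM (chr19:44809071-44821421, plus strand) and NECTIN2 (chr19:44846175-44889223, plus strand) are separated by 24753 bases on chromosome 19, and CADM4 (chr19:43622368-43639850, minus strand) lies 1.17 Mb from BCAM. The others are on chromosomes 3 (ALCAM), 7 (NRCAM), 21 (NCAM2) and X (L1CAM). Exons of other genes on the opposite strand cover 7.89% of the exonic bases of NCAM1, 6.86% of MCAM, 4.94% of L1CAM and 3.42% of NECTIN2. On the same strand, exons of other genes cover 6.04% of the exonic bases of L1CAM and 0.85% of MCAM. The partner of MCAM is CBL, at 55.3 to 96.9 CPM, and those of NCAM1 lay at or below 0.242 CPM. Strand handling in the counting is not given in the sources used here, so reads of MCAM and CBL in the shared bases could not be told apart.

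Levels were compared between genes per kilobase of summed exon length. NECTIN2, a nectin of adherens junctions, was at the top with 65.3 ± 10.5 CPM per kb (mean ± SD, n = 6 libraries), followed by ALCAM (CD166), which binds CD6 and itself, at 53.7 ± 8.0. MCAM (CD146), a receptor for laminin and other ligands, stood at 35.0 ± 16.8 CPM per kb. BCAM, the laminin receptor that carries the Lutheran blood group, had 17.7 ± 3.79 CPM per kb, and CADM4 had 6.62 ± 1.39. L1CAM and NCAM1 were far lower, at 1.18 ± 0.43 and 0.974 ± 1.18 CPM per kb. The ranges over the 6 libraries overlapped between NECTIN2 and ALCAM, ALCAM and MCAM, MCAM and BCAM, and L1CAM and NCAM1. Within libraries, however, NECTIN2 exceeded ALCAM and ALCAM exceeded MCAM in 6 of 6, MCAM exceeded BCAM in 5 of 6, and L1CAM exceeded NCAM1 in 4 of 6. The exceptions to the last were vector replicates 2 and 3, where NCAM1 reached 2.55 and 2.45 CPM per kb and L1CAM 1.74 and 1.51.

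The other neural relatives were barely detected. NCAM2 had 0, 2 and 0 counts with METTL3 and 0, 10 and 0 with vector. NRCAM had 4, 10 and 4 counts against 6, 8 and 8. CADM1, an adhesion protein that many carcinomas lose, had 0, 18 and 4 counts against 12, 0 and 7. A count of 0 allows a level of up to 0.0242 to 0.0316 CPM, depending on the library, and this limit covers counting error only. It takes each count as a separate fragment, and would be higher if both mates of a pair were counted. No order among these 3 genes or between the groups could be read at this depth.

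**Figure D1:**
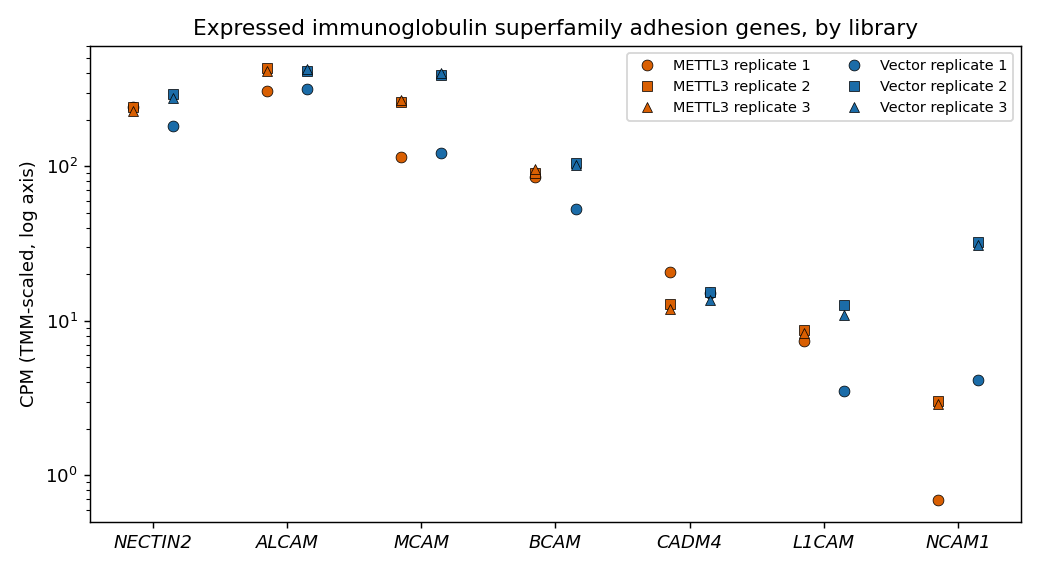
Level of the 7 tested members in each library, in TMM-scaled CPM on a log axis, with colours for the group and symbols for the replicate. NCAM1 spans 0.691 to 32.3 CPM, and the circle of replicate 1 lies below the square and triangle of its group for NCAM1, L1CAM, ALCAM, MCAM and BCAM.

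NCAM1 showed the widest spread of the tested members. Its level was 0.691, 3.02 and 2.91 CPM in METTL3 replicates 1, 2 and 3 and 4.14, 32.3 and 31.1 CPM in vector replicates 1, 2 and 3, from 78 to 3653 counts. Every METTL3 library was thus below every vector library, and within each group replicate 1 was the lowest. The highest library was 46.7 times the lowest, a ratio that was 3.62 for L1CAM, 3.50 for MCAM and at most 1.98 for the other 4 tested members.

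Replicate 1 lay below both replicates 2 and 3 in both groups for 5 of the 7 tested members, namely NCAM1, L1CAM, ALCAM, MCAM and BCAM. The same held for 20.8% of all genes tested. None of the 7 lay above both in both groups, against 23.7% of all genes. These values picked NCAM1, so nothing is read from the counts. On the log2 CPM scale (prior count of 2), replicate 1 of NCAM1 differed from the mean of replicates 2 and 3 by -2.07 in the METTL3 group and by -2.93 in the vector group.

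MCAM followed NCAM1 most closely in this respect. It stood at 115, 261 and 267 CPM with METTL3 and at 121, 390 and 402 CPM with vector. Replicate 1 was low in both groups and nearly equal between them, with differences from replicates 2 and 3 of -1.20 and -1.71 on the log2 scale. ALCAM had 307, 435 and 416 CPM with METTL3 and 318, 415 and 424 CPM with vector. Its replicate 1 was lower in each group by a similar and smaller amount, with log2 differences of -0.47 and -0.40.

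L1CAM and BCAM were low mainly in vector replicate 1. L1CAM had 7.35, 8.72 and 8.28 CPM with METTL3 and 3.49, 12.6 and 10.96 CPM with vector, with log2 differences of -0.21 and -1.75 between replicate 1 and the others. BCAM had 84.6, 90.6 and 95.5 CPM with METTL3 and 52.8, 104 and 102 CPM with vector, with differences of -0.14 and -0.97. In both genes the 3 METTL3 libraries lay inside the range of the vector libraries.

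NECTIN2 and CADM4 did not share the low replicate 1 in both groups. NECTIN2 had 244, 242 and 229 CPM with METTL3 and 181, 294 and 277 CPM with vector, so only its vector replicate 1 was low (log2 difference of -0.65, against 0.05 with METTL3). CADM4 had 20.7, 12.8 and 11.9 CPM with METTL3 and 15.2, 15.4 and 13.7 CPM with vector. Its METTL3 replicate 1 was the highest of the 6 libraries, with a log2 difference of 0.75 from replicates 2 and 3, while the vector libraries were level (0.06).

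**Figure D2:**
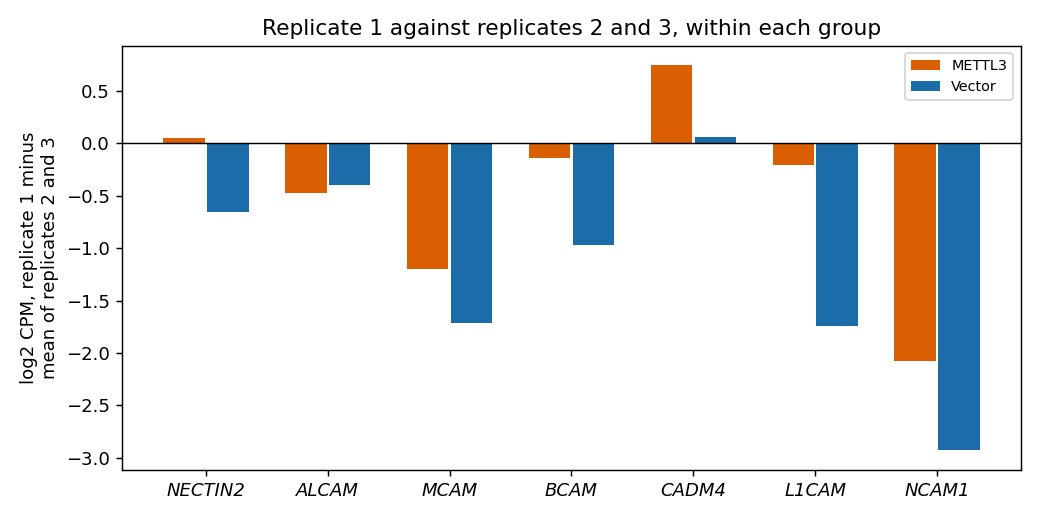
Difference in log2 CPM between replicate 1 and the mean of replicates 2 and 3, for the METTL3 and the vector group, with bars from 0 for each of the 7 tested members. NCAM1 reaches -2.07 and -2.93 and MCAM -1.20 and -1.71, while CADM4 is above 0 in the METTL3 group at 0.75.

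Most epithelial markers moved the other way in the same libraries. Of the 12 markers, 10 lay above replicates 2 and 3 in replicate 1 of both groups (23.7% of all genes tested) and none lay below in both. The exceptions were MUC1, with log2 differences of 0.61 with METTL3 and -1.48 with vector, and KRT7, with -0.13 and 0.65. Some rises were slight with METTL3, as for EPCAM (0.05, against 0.90 with vector) and KRT18 (0.03 against 0.49), while CDH1 rose more there (0.32 against 0.11). The summed level was 9750 CPM in METTL3 replicate 1 and 10419 CPM in vector replicate 1, the highest of each group. For example, EPCAM, an epithelial adhesion protein outside this family, had 437, 414 and 432 CPM with METTL3 and 483, 247 and 271 CPM with vector. Fibroblast markers summed to 17.8 CPM in METTL3 replicate 1 and 9.55 in vector replicate 1, of which COL1A1 made up 16.5 and 8.04 CPM. Of 6 tested fibroblast markers, 2 lay below replicates 2 and 3 in both groups, where 20.8% of all genes tested did, so nothing is read from this count. Of 5 tested endothelial markers, 1 lay below in both groups and 1 above. The former was TIE1, with log2 differences of -2.15 with METTL3 and -1.87 with vector. In bulk RNA, fewer cells of a type and less RNA per cell cannot be told apart, and the part of these markers in the values of NCAM1 was not tested.

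To ask how METTL3 overexpression related to the members, the groups were first compared over all 6 libraries. No gene passed an adjusted p of 0.05 in edgeR (0% of 22038 genes), so 0 of the 7 tested members did. METTL3 itself did not pass either (adjusted p of 0.072 in edgeR), although it was overexpressed. The lack of calls therefore does not show that the members were unchanged. At an unadjusted p under 0.05, 1830 genes (8.30%) passed, and among the members NCAM1 did. With the replicate number as a block, 2478 genes (11.2%) and 2 members did, NCAM1 (log2 fold change of -3.18 ± 0.20, adjusted p of 0.064 in edgeR) and MCAM (-0.42 ± 0.14, adjusted p of 0.388), and 0 genes passed the adjusted threshold. DESeq2 called 226 genes and 0 members. NCAM1 was lower with METTL3 by a log2 fold change of -3.35 ± 0.79 (SE, n = 3 per group), or 10.2-fold, with a 95% confidence interval from -5.16 to -1.54 and an adjusted p of 0.395 in edgeR. It was the 1 member whose groups did not overlap, and METTL3 was lower without overlap in 8.93% of all genes and higher in 8.47%.

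The other members gave small estimates whose intervals bound the difference. ALCAM had a log2 fold change of 0.003 (95% interval -0.40 to 0.40), NECTIN2 of -0.07 (-0.48 to 0.34), CADM4 of 0.04 (-0.45 to 0.53) and BCAM of 0.06 (-0.48 to 0.60). The wider intervals of MCAM (-0.51, from -1.56 to 0.54) and L1CAM (-0.15, from -1.06 to 0.75) went with their spread between replicates. All these intervals are from the fit without the replicate block. Their SE was 0.46 for MCAM and 0.40 for L1CAM, and 0.14 and 0.32 with the block. Adjusted p-values of these 6 members were 0.753 to 0.998 in edgeR. The median log2 fold change was -0.07 over the 7 tested members and -0.02 over all genes tested.

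Because replicate 1 stood apart in both groups, the comparison was repeated on replicates 2 and 3 alone (n = 2 per group), a choice made with the values known. In this fit 4 of the 7 members were lower with METTL3 at an adjusted p under 0.05 in edgeR and 0 were higher, where 8.59% of all 22046 genes were lower and 6.66% higher. NCAM1 was lower by a log2 fold change of -3.42 ± 0.08 (SE), or 10.7-fold (adjusted p of 1.7e-11). MCAM fell by 0.59 ± 0.05 on the log2 scale (adjusted p of 3.1e-06 in edgeR). L1CAM fell by 0.47 ± 0.09 (adjusted p of 0.0030) and NECTIN2 by 0.28 ± 0.05 (adjusted p of 0.0030). BCAM and CADM4, at -0.16 and -0.24, did not pass (adjusted p of 0.068 and 0.082 in edgeR), and ALCAM was at 0.02 (0.852). The median log2 fold change was -0.28 over the 7 members and -0.003 over all genes. These p-values rest on 2 libraries a group, and replicates 2 and 3 of a group differed little. The fit leaves out the libraries whose low values had picked NCAM1, so its calls are a description only. Over all 6 libraries the adjusted p in edgeR was 0.395 for NCAM1, 0.753 for MCAM, 0.924 for L1CAM and 0.921 for NECTIN2. The log2 fold change on replicates 2 and 3 was 0.69 for PECAM1, -0.59 for CEACAM5 and -0.92 for LYZ. On all 6 libraries it was 1.08, -0.14 and -0.61. The fold changes that the study lists for these genes lie closer to the former fit. The study also reports more called genes than the fits over all libraries gave here. Whether the study left out any library is not stated and was not tested.

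Between the replicate 1 libraries, which give 1 value a group and no test, 4 members pointed the other way. L1CAM was higher with METTL3 by 1.07 on the log2 scale, BCAM by 0.68, CADM4 by 0.45 and NECTIN2 by 0.43. MCAM and ALCAM were nearly equal there, at -0.07 and -0.05. NCAM1 was lower in this pair too, by 5.99-fold. Whether the effect of METTL3 differed between replicate 1 and the other replicates was not tested.

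**Figure D3:**
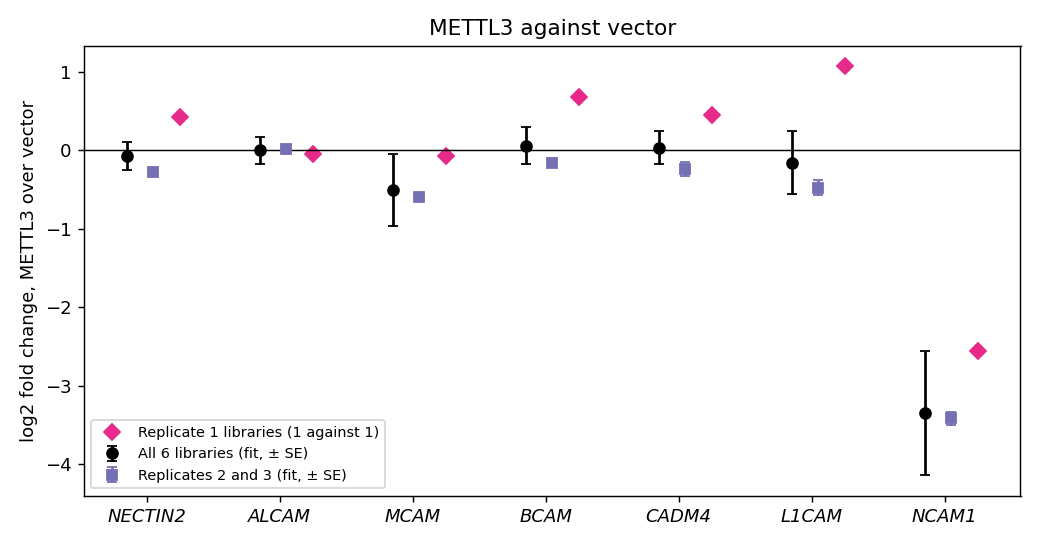
Log2 fold change of METTL3 over vector for the 7 tested members, as fitted on all 6 libraries (circles, ± SE), as fitted on replicates 2 and 3 (squares, ± SE) and as the plain difference between the replicate 1 libraries (diamonds). NCAM1 lies at -3.35, -3.42 and -2.55, whereas L1CAM, BCAM, CADM4 and NECTIN2 are above 0 in replicate 1 and below 0 in replicates 2 and 3.

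The sites at which METTL3 can place m6A follow a 5-letter pattern called DRACH (A, G or T, then A or G, then A, C, and A, C or T). Matches were counted on 1 representative transcript of each gene. Protein-coding genes tested had a median of 18.9 matches per kb (n = 14873). NCAM1 had 19.8 per kb, at percentile 60.3, with 64 of its 115 matches in the 3′ untranslated region. ALCAM was at the upper end with 26.0 per kb (percentile 97.3), and MCAM at the lower end with 15.3 (percentile 16.5). A relation between the density of matches and the difference between the groups was not tested. The count says nothing of methylation, which was not measured in these libraries.

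Relatives of the members were then described by lists, which were drawn up with earlier results of these data known. Over all 6 libraries, edgeR called 0 of the listed genes at an adjusted p under 0.05, while DESeq2 called CNTN1, VCAM1, NRP2, EGFR and WNT5A among the relatives, partners, anchors and enzymes and 2 of the epithelial markers, CDH1 among them. The counts below come from the edgeR fit on replicates 2 and 3, in which 8.59% of all genes were lower with METTL3 and 6.66% were higher. That fit was chosen with the values known, so its counts and p-values are a description only. In the replicate 1 pair, METTL3 was the higher library for 11 of 18 tested neural relatives, 4 of 7 nectin and CADM relatives, 19 of 27 leukocyte and junction relatives and 18 of 26 partners. It was the higher library for 10 of 21 cytoplasmic anchors and 9 of 13 sheddases and enzymes of sialic acid. The share over all genes was not computed, so nothing is read from these counts. Among 27 relatives of the neural cell adhesion type, 18 were tested, 7 were lower with METTL3 and 1 was higher. CNTN1, a contactin that binds L1 family proteins, had 0.195, 0.419 and 0.376 CPM with METTL3 and 0.506, 1.61 and 1.43 CPM with vector, a log2 fold change of -1.93 ± 0.24 (adjusted p of 6.6e-05 in edgeR). SDK2, which mediates synaptic layer choice in the retina, had 2.92, 3.36 and 2.38 CPM with METTL3 and 1.55, 7.01 and 7.02 CPM with vector. It was lower by 1.28 ± 0.15 on the log2 scale in replicates 2 and 3, but higher with METTL3 in the replicate 1 pair. NEGR1, of the IgLON family, was lower by 1.02 ± 0.10. NEGR1 was also low in replicate 1 of both groups, at 0.727 and 1.69 CPM against 4.16 to 8.85 in the other libraries. The most abundant relatives per kb were KIRREL1 (27.6 CPM per kb) and NEO1, a netrin receptor (15.3 CPM per kb), with log2 fold changes of -0.19 ± 0.06 (adjusted p of 0.034) and 0.01 ± 0.06 (0.945).

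Of 10 relatives of the nectin and CADM type, 7 were tested, 2 were lower and 0 were higher. They were NECTIN3 (-0.24 ± 0.06) and PVR, the poliovirus receptor (-0.18 ± 0.05), with PVR and NECTIN1 the most abundant at 20.4 and 14.5 CPM per kb. Their receptors on lymphocytes, CRTAM, TIGIT, CD96 and CD226, lay at or below 0.358 CPM.

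Relatives known from leukocyte contact and tight junctions were mixed, with 7 higher and 5 lower of 27 tested. JAM3 fell by 0.68 ± 0.06 and ICAM1, the ligand of leukocyte integrins, by 0.62 ± 0.06 on the log2 scale. ICAM1 had 257, 264 and 245 CPM with METTL3 and 159, 401 and 380 CPM with vector, so its vector replicate 1 was low as for L1CAM and BCAM. PECAM1, a homophilic adhesion protein of endothelium and platelets, was higher by 0.69 ± 0.13, with 21.4, 9.29 and 7.45 CPM against 7.74, 5.71 and 4.67. The most abundant were CEACAM6 at 176 CPM per kb and BSG at 130 CPM per kb, with log2 fold changes of 0.31 ± 0.05 (adjusted p of 0.00078) and -0.10 ± 0.05 (0.219).

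Among the proteins through which the members bind and signal, 26 of 28 genes were tested, 12 were lower and 5 were higher. WNT5A, a ligand of MCAM, had 0.159, 0.202 and 0.158 CPM with METTL3 and 0.506, 1.37 and 1.63 CPM with vector, a log2 fold change of -3.04 ± 0.28 (adjusted p of 5.4e-06). GAP43, a growth cone protein downstream of NCAM1 in neurons, was near the limit of detection and fell by 2.34 ± 0.55 (0.0094), and GFRA2, of the GDNF receptor family, fell by 1.14 ± 0.18 (0.00049). FGFR1 to FGFR4, the FGF receptors that NCAM1 and L1CAM engage, were each lower in replicates 2 and 3, whereas over all 6 libraries their adjusted p was 0.650 to 0.889 in edgeR. FGFR1 had 216, 305 and 299 CPM with METTL3 and 204, 427 and 421 CPM with vector. In the replicate 1 pair FGFR1, FGFR2 (1.27 against 0.885 CPM) and FGFR3 (42.5 against 31.8 CPM) were higher with METTL3. The low replicate 1 of FGFR1 in both groups resembled that of MCAM. NRP2, a semaphorin co-receptor, went the other way with 241, 250 and 233 CPM against 123, 114 and 111, without overlap and with an even replicate 1, and its log2 fold change over all 6 libraries was 1.05 ± 0.11 (adjusted p of 0.072 in edgeR). The most abundant partners per kb were LGALS1 (209 CPM per kb), a galectin, and ITGB1, the integrin β1 chain (109 CPM per kb), with -0.11 ± 0.05 (0.216) and -0.05 ± 0.05 (0.609).

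Of 22 genes for cytoplasmic anchors, 21 were tested, 3 were lower and 3 were higher. EZR, which links membrane proteins to actin and was the most abundant at 308 CPM per kb, was higher by 0.55 ± 0.05, while its relative MSN fell by 0.48 ± 0.06 on the log2 scale. MPP2, a scaffold protein, fell by 0.44 ± 0.08. CTNNA1, α-catenin, at 70.5 CPM per kb, had a log2 fold change of 6.6e-05 ± 0.06 (adjusted p of 0.9997). Of 16 sheddases and enzymes of sialic acid, 13 were tested, 3 were lower and 1 was higher. ADAM10, which cuts L1CAM and other members, was level at 36.3 CPM per kb (-0.05 ± 0.05, adjusted p of 0.629). MMP14, at 25.3 CPM per kb, and ADAM8 fell by 0.29 ± 0.05 and 0.40 ± 0.08, and BACE2 was higher by 0.28 ± 0.05. ST8SIA2 and ST8SIA4, which add polysialic acid to NCAM1, lay at or below 0.142 CPM in every library.

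In the marker lists, epithelial genes moved together in replicates 2 and 3, with 11 of 12 higher with METTL3 and 0 lower, and a median log2 fold change of 0.50. Over all 6 libraries edgeR called 0 of the 12 (median of 0.30), and in the replicate 1 pair 5 of the 12 were lower with METTL3, namely EPCAM, KRT7, KRT8, KRT18 and KRT19. CDH1, E-cadherin, had 439, 358 and 346 CPM with METTL3 and 201, 184 and 189 CPM with vector, without overlap, and was higher by 0.91 ± 0.05 on the log2 scale (adjusted p of 7.5e-08 in edgeR). EPCAM was higher by 0.71 ± 0.06, and KRT8 and KRT18 were the most abundant at 568 and 564 CPM per kb. Of 6 tested neural and neuroendocrine markers of 12, 2 were lower, SYP (-0.69 ± 0.19) and ENO2 (-0.62 ± 0.06), the latter a glycolytic enzyme and the most abundant of the list at 8.38 CPM per kb. Leukocyte markers had 1 lower gene of 3 tested in this fit (LYZ, -0.92 ± 0.06), endothelial markers 1 of 5 (EGFL7, -0.27 ± 0.06) and fibroblast markers 0 of 4. The most abundant genes of these lists per kb besides LYZ and EGFL7 (11.4 CPM per kb) were CD14 (5.29), COL1A1 (1.75), TIE1 (1.55) and PDGFRB (0.241). The part of these markers in the difference of NCAM1 between the groups was not tested.

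**Figure D4:**
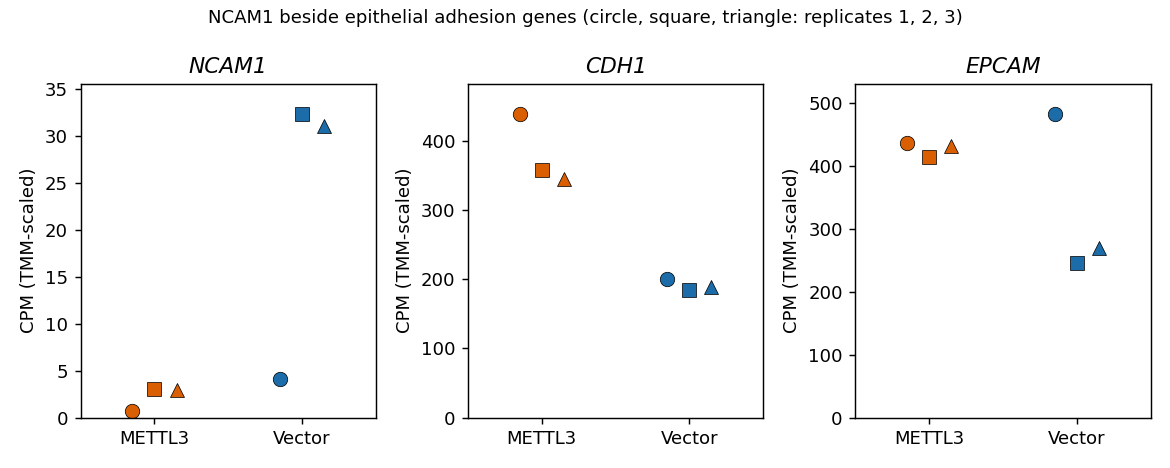
CPM of NCAM1, CDH1 and EPCAM in each library on linear axes that start at 0, with METTL3 libraries on the left and vector libraries on the right of each panel and a circle, square and triangle for replicates 1, 2 and 3. On these axes vector replicate 1 is near the METTL3 libraries for NCAM1 (4.14 against 0.691 to 3.02 CPM) and EPCAM (483 against 414 to 437 CPM). It is with the other vector libraries for CDH1. For NCAM1 it is 5.99-fold above METTL3 replicate 1.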

How the data were processed

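Poly(A)-enriched RNA of OVCAR5 cells was sequenced as 3 METTL3 and 3 vector libraries, grouped by their titles. The labels describe stranded, paired-end libraries, while the study's methods name another kit and single-end reads. The authors aligned the reads to GRCh38 with HISAT2 and counted them with Subread (featureCounts), and the submitters' processing notes also name fastp. Versions and the annotation release are not given in the sources used here. The deposited values are raw counts per gene, 60649 rows with totals of 96633925 to 125463386. Even values made up 67.6% to 70.5% of counts from 1 to 20, and counting both mates would make counts less precise than their size implies.

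Counts were fitted here with edgeR 4.0.16 (R 4.3.3), with filterByExpr, TMM factors, robust quasi-likelihood dispersion and Benjamini-Hochberg adjustment over all genes tested (threshold 0.05). Standard errors are the log2 fold change divided by the square root of F. Alternatives were DESeq2 1.42.0, other scalings and filters, a replicate block, halved counts, replicates 2 and 3 only, and leaving out each library. Names, coordinates, exon lengths and transcripts were taken from GENCODE 44 by identifier without version, for 60463 rows. Deviations from the group means correlated between libraries of the same number by 0.334, 0.120 and 0.175. These deviations sum to 0 within a group, so a shift shared by the replicate 1 libraries also raises the values of replicates 2 and 3. The values of replicates 2 and 3 thus give no separate evidence of a pairing. A pairing by number was fitted as an alternative, the replicate block, from the values and not the labels. The study states no blocked fit, so the comparisons and intervals are from the fit without the block, and blocked values are given where they change a count.

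Named genes were all members, METTL3, and from each list the 2 with the highest level per kb and up to 3 of those with an adjusted p under 0.05 and the largest fold change, taken from the fit on replicates 2 and 3 where none passed over all libraries. The 5 genes most like NCAM1 were taken by the root mean square difference of centred log2 CPM. Defining markers near 0 and genes beyond this rule (FGFR1, NRP2, ST8SIA2 and others) were named after their values were seen, and some listed genes are not reported here by name. Members, lists and tests were chosen with earlier results of these data known.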

Additional observations from a re-analysis of the deposited data

How the results depend on the processing

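The count of called members rose from 0 to 4 on replicates 2 and 3 and to 1 with no filter on low counts, and ranged from 0 to 1 with single libraries left out. The 1 call came without vector replicate 1, for NCAM1 (log2 fold change of -3.84, adjusted p of 0.026 in edgeR). Genes called numbered 226 with DESeq2, 560 with no filter and 3362 on replicates 2 and 3, and 0 to 367 with single libraries left out, 367 without vector replicate 1. With no filter, the fit gave each gene 172384 degrees of freedom in place of about 8.37, so its p-values treat the spread as known and are not comparable. NCAM1 stayed lower with METTL3 in all 14 alternatives (-3.84 to -2.91), with an adjusted p of 0.904 at most. The replicate block (NCAM1 -3.18, adjusted p of 0.064 in edgeR, 0 members called) changed no call at the adjusted threshold. Estimates near 0 changed sign. With the block L1CAM was 0.0226, ALCAM -0.00219 and CADM4 -0.0076, and on replicates 2 and 3 BCAM was -0.16 and CADM4 -0.24. Single libraries left out gave L1CAM -0.54 to 0.18, ALCAM -0.12 to 0.16, MCAM -0.89 (without vector replicate 1) to -0.19 (without METTL3 replicate 1; -0.27 and -0.24 without vector replicates 2 and 3), BCAM -0.20 to 0.24, CADM4 -0.24 to 0.20 and NECTIN2 -0.259 to 0.0795. The difference of replicate 1 for NCAM1 moved from -2.07 to -2.01 in the METTL3 group with upper-quartile factors or total counts, and from -2.93 to -2.98 with RLE factors in the vector group. The cause of the difference between replicate 1 and the other replicates was not tested, and with 3 libraries a group no library can be set aside from these data alone. Depth limited NCAM2, NRCAM and CADM1.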

Other observations

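The genes whose level followed NCAM1 most closely over the 6 libraries, among 12546 protein-coding genes with a mean of at least 1 CPM, were CDYL2, LRATD1, CHRDL1, PTPRD and DOCK2, with root mean square differences in centred log2 CPM of 0.545, 0.701, 0.715, 0.753 and 1.03. They were picked for this likeness, which is a description. CDYL2, a chromodomain protein, had 0.354, 0.799 and 0.773 CPM with METTL3 and 0.801, 5.63 and 5.57 CPM with vector, and its groups did not overlap. CHRDL1, a secreted antagonist of bone morphogenetic proteins, had 0.452, 4.49 and 3.36 CPM with METTL3 and 1.78, 13.7 and 14.1 CPM with vector. PTPRD, a receptor tyrosine phosphatase, had 0.284, 0.597 and 0.525 CPM with METTL3 and 0.369, 3.55 and 3.28 CPM with vector. In CHRDL1 and PTPRD, vector replicate 1 lay within the range of the METTL3 libraries, whereas for NCAM1 it was above them. The 5 genes lie on chromosomes 16, 2, X, 9 and 5, none on that of NCAM1.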
